A study of Homo sapiens with 2 samples.

Results

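The S100A genes are a family of small calcium-binding proteins, most of which lie side by side on the long arm of chromosome 1. The members described here are S100A2, S100A3, S100A4, S100A6, S100A10, S100A11, S100A13 and S100A16, chosen by exact gene symbol with the miR-31 and control values of earlier results known. They are read by 11 of the 54675 probe sets and are 8 of the 19775 genes that the platform annotation names through probe sets with 1 symbol. Gene expression was measured in U251, a human glioma cell line grown in DMEM with 10% serum, with the HG-U133_Plus_2 GeneChip of Affymetrix, whose probes mostly lie near the 3' end of transcripts. The series holds 1 array of U251 cells transfected with miR-31 and 1 array of U251 cells transfected with a control, each from 250 ng of total RNA. The labels do not give the construct, the dose, the time from transfection to harvest or the nature of the control, so how strong a miR-31 over-expression these cells model is not known. With 1 array per group there is no spread between replicates, no p-value was computed, and each difference is between 2 RNA samples.

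S100 proteins carry paired EF-hand loops, the helix-loop-helix folds that hold calcium, and act mostly as dimers. Calcium binding opens a surface on the dimer that grips target proteins such as annexins, non-muscle myosin and other cytoskeletal proteins, and several members are also released and bind the cell-surface receptor RAGE. In the brain S100B is the classical astroglial member, while several S100A genes have been studied in glioma for their links to cell movement and invasion.

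miR-31 is a microRNA, a short RNA that guides silencing complexes to messenger RNAs through its seed. Its mature 5' arm is shown because it names the treatment. RefSeq places it on the minus strand at chr9:21512158-21512178 (GRCh38.p14), and the capitals mark the seed, bases 2 to 8.
hsa-miR-31-5p: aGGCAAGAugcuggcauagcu
The labels do not say which arm was delivered, and none of the probe sets used here reads the mature microRNA.

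S100A4 was the member with the largest difference between the arrays when taken as a ratio. Its intensity was 1582 on the miR-31 array, against 4779 on the control array, a log2 ratio of -1.59 on the scale of log2(intensity + 16) that is used for every ratio here, miR-31 minus control. S100A16 and S100A3 were lower by smaller amounts, and the very bright S100A2, S100A6 and S100A10 had ratios close to 0 on their brightest probe sets. Of the 8 members, 7 had ratios below 0 and 1 had a ratio above 0. Over all 11787 genes compared, 5518 were below 0 and 6269 above. The median over the members was -0.22, beside 0.03 over all genes compared. The genes compared are those with a probe set whose mean of the 2 arrays reached an intensity of 62.7, the median over all probe sets, and the brightest such probe set stands for its gene. All 8 members and all 11 of their probe sets passed this minimum.

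A 2-fold difference was reached by 1 of 8 members on the lower side, S100A4, and by 0 of 8 on the higher side. Over all genes compared the share past 2-fold was 1.58% on the lower side and 3.74% on the higher side. At 1.5-fold, 3 of 8 members were lower and 0 higher, beside 6.73% and 11.7% of all genes. Because the members were chosen with this same contrast known, these counts are a description and nothing is read from them.

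**Figure D1:**
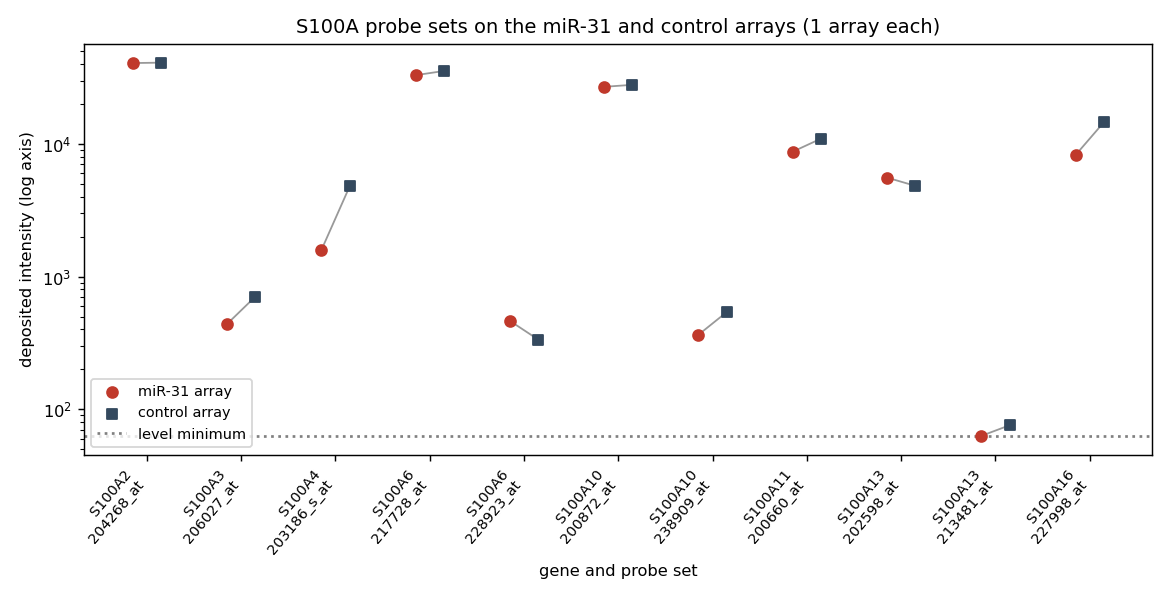
Deposited intensity (log axis) of each of the 11 S100A probe sets, with the miR-31 array as circles and the control array as squares, joined by a line. S100A4 has the steepest line, with 1582 on the miR-31 array and 4779 on the control array, while the lines of the bright probe sets of S100A2, S100A6 and S100A10 are nearly flat.

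S100A4 binds the heavy chain of non-muscle myosin and loosens its filaments, and it is used as a marker of motile, fibroblast-like cells. The miR-31 array held 33.1% of the S100A4 intensity of the control array, a 3.02-fold lower level. In a whole culture, fewer cells that express a gene and less RNA per cell cannot be told apart. The S100A4 ratio was number 47 from the bottom among the 11787 genes compared. Among the 500 genes nearest to it in mean level, 2 had a ratio that low or lower, itself included, and their robust SD was 0.34. S100A4 is read by a single probe set, 203186_s_at, whose suffix marks probes that can match more than 1 transcript, so no other probe set checks the value. In the RefSeq annotation S100A4 overlaps its neighbour S100A5, whose own probe set had intensities of 4.68 on the miR-31 array and 9.96 on the control array, both under the level minimum.

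S100A16, a broadly expressed member with an atypical calcium-binding loop, had an intensity of 8251 on the miR-31 array, against 14574 on the control array. This was 56.6% of the control level and a log2 ratio of -0.82, and the difference of -6323 intensity units was the biggest of any member on the linear scale. Its ratio was number 349 from the bottom, and 11 of the 500 genes nearest in level had a ratio that low or lower. S100A3, a cysteine-rich member best known from the hair cuticle, had 439 on the miR-31 array and 706 on the control array, which is 62.1% of the control level. Its log2 ratio of -0.67 was number 581 from the bottom, with 27 of the 500 genes nearest in level at or below it. Both genes were read by a single probe set.

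S100A11 binds annexin A1 and takes part in the repair of the plasma membrane. It had 8736 on the miR-31 array and 10962 on the control array, a log2 ratio of -0.33. This is about the size of the disagreement between probe sets of 1 gene: over 3142 genes with exactly 2 probe sets above the minimum, the log2 ratio of a probe set had an SD of 0.33. That gauge covers neither differences between cultures nor errors that 2 probe sets share. By it the S100A4 ratio was 4.75 times, the S100A16 ratio 2.46 times and the S100A3 ratio 2.0 times the SD of a probe set, and S100A11 0.98 times.

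S100A2, a mostly nuclear member studied as a growth-restraining gene in epithelia, was among the brightest features on both arrays. It had 40673 on the miR-31 array and 40970 on the control array, a log2 ratio of -0.01. Only 27 probe sets were brighter on the miR-31 array and 5 on the control array, and the highest intensity of any probe set was 48627 on the miR-31 array and 44755 on the control array. S100A6, also called calcyclin, had 32954 on the miR-31 array and 35457 on the control array by its bright probe set, 217728_at (-0.11). S100A10, which does not depend on calcium and joins annexin A2 in a complex that binds plasminogen, had 26934 on the miR-31 array and 27887 on the control array by 200872_at (-0.05). These 3 genes lay near the top of the measured range on both arrays. Whether their probe sets could still register a difference there was not tested, so ratios near 0 are not read as unchanged levels. The 500 brightest genes, which include all 3, had a robust SD of 0.21 in log2 ratio.

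The second, dimmer probe sets of S100A6 and S100A10 gave other values than the bright ones. For S100A6, 228923_at had 463 on the miR-31 array and 335 on the control array, a log2 ratio of 0.45, so the direction for S100A6 depended on the probe set. For S100A10, 238909_at had 364 on the miR-31 array and 540 on the control array, a log2 ratio of -0.55. The supplied annotation does not say which part of each transcript these probe sets read. The S100A6 value is 1.35 times and the S100A10 value 1.64 times the probe set SD.

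S100A13, which helps FGF1 and interleukin 1 alpha to leave cells without a signal peptide, was the only member with a ratio above 0 on its bright probe set. The probe set 202598_at had 5569 on the miR-31 array and 4829 on the control array, a log2 ratio of 0.21, and 396 of the 500 genes nearest in level had a ratio that high or lower. Its second probe set, 213481_at, was just above the level minimum, with 63.0 on the miR-31 array and 75.7 on the control array and a ratio of -0.22. Neither value goes beyond the probe set SD. In RefSeq S100A13 overlaps S100A1, whose probe set had 11.4 on the miR-31 array and 17.3 on the control array, under the minimum.

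**Figure D2:**
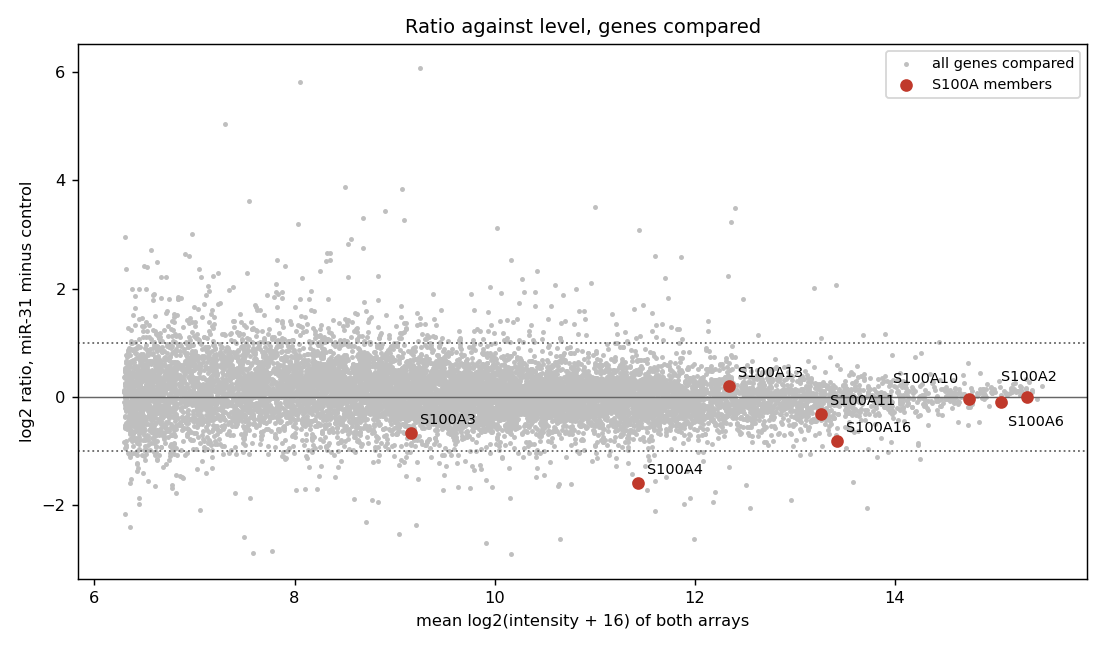
Log2 ratio (miR-31 minus control) against the mean log2(intensity + 16) of both arrays for the 11787 genes compared, with the S100A members labelled and dotted lines at 2-fold. S100A4 lies below the lower line at -1.59, S100A16 and S100A3 lie between the lines at -0.82 and -0.67, and S100A2, S100A6 and S100A10 sit at the bright end close to 0.

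The ratios of the members were spread out. They ran from -1.59 for S100A4 to 0.21 for S100A13, a range of 1.79 on the log2 scale, and S100A4 lay 1.48 below the median of the other 7 members. Centring all genes on another value leaves such a within-array difference as it is, and under the other settings that keep S100A4 its distance to that median ran from -1.49 to -1.29. Of the 8 members only S100A13 changed sign with scaling, and only relative to the poly-A controls. The bacterial hybridisation controls, added to the labelled samples, had a median log2 ratio of 0.19 over 18 probe sets, and the poly-A spike-in controls 0.51 over 27. Relative to the hybridisation controls S100A13 was at 0.02 and S100A16 at -1.01, and relative to the poly-A controls S100A13 was at -0.30, S100A2 at -0.52 and S100A4 at -2.09.

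Gene order gives another view of the same values. From the protein-coding genes of the RefSeq table on chromosome 1, S100A10 and S100A11 lie together, and the other members lie in a second group, in the order S100A6, S100A5, S100A4, S100A3, S100A2, S100A16, S100A14, S100A13 and S100A1. S100A4 and S100A3, next to each other, had -1.59 and -0.67. S100A2, on the other side of S100A3, had -0.01, and S100A16 after it had -0.82. S100A14, a member of the family found mainly in epithelia, had 68.3 on the miR-31 array and 69.9 on the control array and a ratio of -0.03.

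The genes around the cluster were taken as the protein-coding genes between the outermost members and the 30 on each side, with all S100 genes left out. Of these 106 genes, 75 are named on the array and 42 were compared, with 26 below 0, 16 above 0 and a median of -0.10. On the higher side 1 of the 42 passed 2-fold on its brightest probe set, beside 3.74% of all genes compared. It was SLC27A3, a fatty acid transport protein gene, with 590 on the miR-31 array and 156 on the control array (1.81). On the lower side 1 of the 42 did, beside 1.58% of all genes compared. That gene was KCNN3, a calcium-activated potassium channel, with 45.1, below the level minimum, on the miR-31 array and 113 on the control array (-1.08). Other probe sets passed 2-fold for RFX5 (1.26) and PIP5K1A (-1.09). ADAR, an RNA-editing enzyme, had 0.73 and CREB3L4, a transcription factor gene, also 0.73. THEM4, beside S100A10, had 0.15 and CHTOP, beyond S100A1, had 0.20. With S100 genes left out, 47 genes lie between the outermost members, most of them of the skin barrier, of which 24 are named on the array and 3 passed the level minimum.

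**Figure D3:**
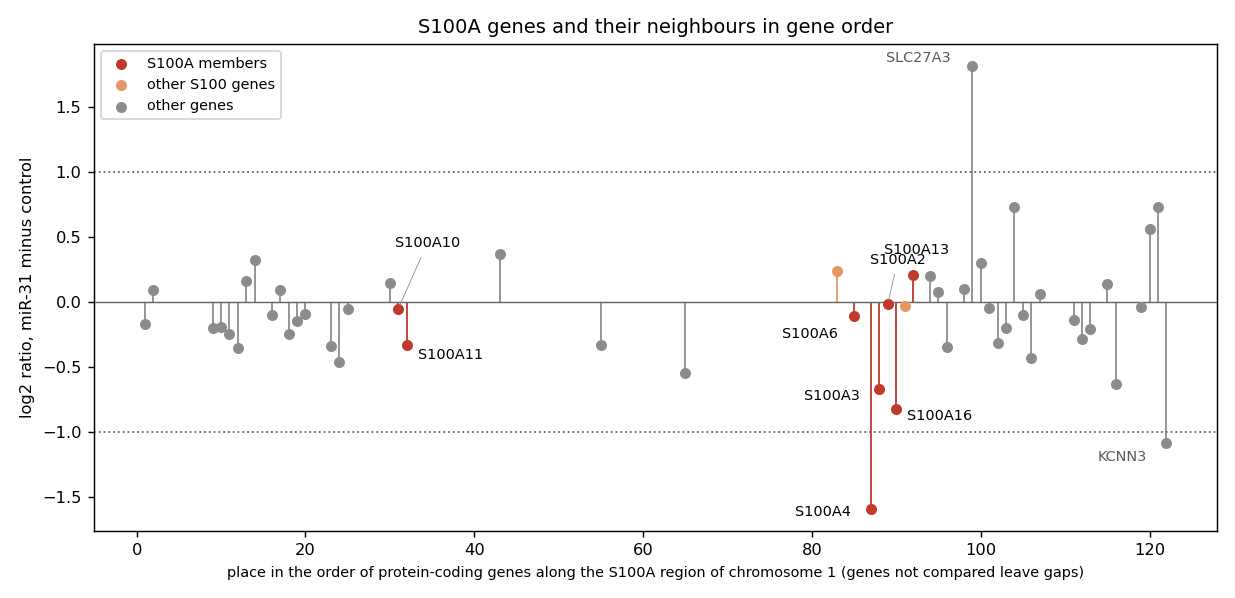
Log2 ratio (miR-31 minus control) of each gene compared, by its place in the RefSeq order of protein-coding genes along the S100A region of chromosome 1. Gaps are genes not compared. The S100A members stand between -1.59 and 0.21, with S100A4 and S100A3 side by side below 0 and S100A2 next to them at -0.01.

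Start regions of the members were searched for short motifs, since members that lie side by side differed. The RefSeq windows run from 250 bases before to 50 bases after each annotated start (GRCh38.p14), and the 8 members have 12 of them. The letters TGANTCA, which AP-1 factors bind and which read the same on both strands, occur in 2 of the 12, beside 7.71% of all 35116 windows. The letters TATAAA, searched on both strands, occur in 2 of the 12, beside 11.5% of all windows. The letters TTCNNNGAA, which STAT factors bind and which also read the same on both strands, occur in 1 of the 12, in S100A3, beside 7.66% of all windows. The 250 bases before the S100A4 start are shown because that gene had the lowest ratio, and 3 shorter stretches from S100A13, S100A3 and S100A2 because they hold the same TATA or the AP-1 letters in genes with other ratios. All are from the minus strand, with the match in capitals.
S100A4, chr1:153545807-153546056: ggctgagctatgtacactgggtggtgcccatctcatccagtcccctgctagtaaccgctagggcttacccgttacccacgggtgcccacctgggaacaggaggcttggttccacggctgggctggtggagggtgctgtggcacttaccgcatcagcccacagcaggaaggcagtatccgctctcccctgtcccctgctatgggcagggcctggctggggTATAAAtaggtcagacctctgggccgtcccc
S100A13, chr1:153627517-153627546: ttccccgctgctTATAAAcctcagccctga
S100A3, chr1:153549465-153549494: ggaatcaggagTGAGTCActgggctagcat
S100A2, chr1:153565878-153565907: ggagtgggctgTGACTCAcaggcatgtcat
The TATA letters begin at position -31 in S100A4 and -29 in S100A13, counted from the annotated start, and the AP-1 letters at -225 in S100A3 and -52 in S100A2. The AP-1 and TATA letters are each found in 1 gene at least 1.5-fold lower and in 1 gene within 1.5-fold, and a match is a description of the letters, not a binding site. The share of G and C in the windows was 60.7% for S100A4, 56.3% for S100A3 and 58.3% for each S100A16 window, and ran from 60.0% to 71.7% in the windows of the other members.

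The rest of the S100 family was dim. Of 13 other S100 genes listed, 12 are named on the array through 15 probe sets, and 3 of these probe sets passed the level minimum. S100A7A had a ratio of 0.24, S100Z -0.20 and S100A14 -0.03, with intensities no higher than 198 on either array. The 12 probe sets below the minimum had between 2.27 and 50.8 on the miR-31 array and between 1.86 and 63.5 on the control array, and such values cannot be separated from background. They include S100B, with 50.8 on the miR-31 array and 38.1 on the control array by 209686_at, and the myeloid genes S100A8 and S100A9.

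Proteins that S100 members bind lay on both sides of 0. Of 22 listed, 17 were compared, 9 above 0 and 8 below, with a median of 0.03. On the brightest probe sets 0 reached 2-fold. Other probe sets did for DLC1 (-1.40), PPFIBP1 (-1.01) and MDM2 (1.06). ANXA2, the partner of S100A10, had 31804 on the miR-31 array and 28818 on the control array (0.14, with 4 probe sets between 0.14 and 0.20). ANXA1, the partner of S100A11, had 33705 on the miR-31 array and 36457 on the control array (-0.11). MYH9, the myosin heavy chain that S100A4 binds, had 2420 on the miR-31 array and 2209 on the control array (0.13). ANXA2, ANXA1 and MYH9 lay closer to 0 than the probe set SD. MYH10, another non-muscle myosin heavy chain on the list, had 0.38, and 0.51 on its other probe set.

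CACYBP, the calcyclin-binding protein, had 7348 on the miR-31 array and 11019 on the control array (-0.58, with 4 probe sets between -0.69 and -0.08). AHNAK, a giant scaffold protein that the S100A10 and annexin A2 complex binds, had -0.30 on one probe set and 0.71 on the other. SYT1, the vesicle calcium sensor that joins S100A13 in the release of FGF1, had 705 on the miR-31 array and 345 on the control array (0.999, just short of 2-fold). DLC1, a tumour suppressor that S100A10 binds, had 375 on the miR-31 array and 715 on the control array (-0.90, and -1.40 on its other probe set). Of the ion channels that S100A10 brings to the cell surface, ASIC1 had 129 on the miR-31 array and 66.9 on the control array (0.81). KCNK3 had 94.9 on the miR-31 array and 54.8, below the level minimum, on the control array (0.65).

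Reported S100 receptors had a median of -0.01 over 6 of 8 compared, 3 above 0 and 3 below, with 0 at 2-fold. MCAM, an adhesion molecule of the immunoglobulin family, had 506 on the miR-31 array and 258 on the control array (0.93). TLR4, a receptor of innate immunity, had -0.40, with 3 probe sets between -0.40 and 0.18. BSG, the surface glycoprotein basigin, had 0.23 and FGFR1, a growth factor receptor, -0.21, with its 7 probe sets between -0.52 and 0.59.

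Other calcium-binding families had medians slightly above 0 on the deposited scale and below 0 relative to the hybridisation or poly-A controls. Of 12 annexins listed, 7 were compared, 5 above 0 and 2 below, with a median of 0.08. ANXA6 had 906 on the miR-31 array and 399 on the control array (1.15), the only annexin past 2-fold on its brightest probe set. ANXA4 had 0.69, and 1.21 on its other probe set, and ANXA5 had -0.25. Of 30 EF-hand proteins outside the S100 family, 24 were compared, 18 above 0 and 6 below, with a median of 0.06. EFHD1, a mitochondrial EF-hand protein, was the only one past 2-fold on its brightest probe set (2.37), with 285 on the miR-31 array and 42.3, below the level minimum, on the control array. CAPN1, a calcium-dependent protease, had 0.97 on its brighter probe set and 0.28 on the other. NUCB2, a calcium-binding protein of the Golgi, had 0.64, and 1.10 on its other probe set, and CETN2, a centriole protein, had 0.57. Whether the families differ from the S100A members was not tested.

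Transcription factors reported to act on S100 genes had a median of -0.04 over 16 of 19 compared, with 6 above 0 and 10 below. On the brightest probe sets 1 was past 2-fold on each side. FOSL1, an AP-1 subunit, had 466 on the miR-31 array and 1539 on the control array (-1.69). USF1, a helix-loop-helix factor, had 222 on the miR-31 array and 98.9 on the control array (1.05). ETS2 had -0.98, and -0.34 on its other probe set. ETS1 had -0.69, with 3 probe sets between -1.07 and -0.69. CTNNB1 had 0.22, with 3 probe sets between -0.15 and 1.32, so another of its probe sets was past 2-fold higher. Of the other AP-1 subunits compared, JUN had -0.58, with 4 probe sets between -0.58 and -0.33, and JUNB had 0.19. These values stand beside those of the S100A genes, and their part in them was not tested.

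**Figure D4:**
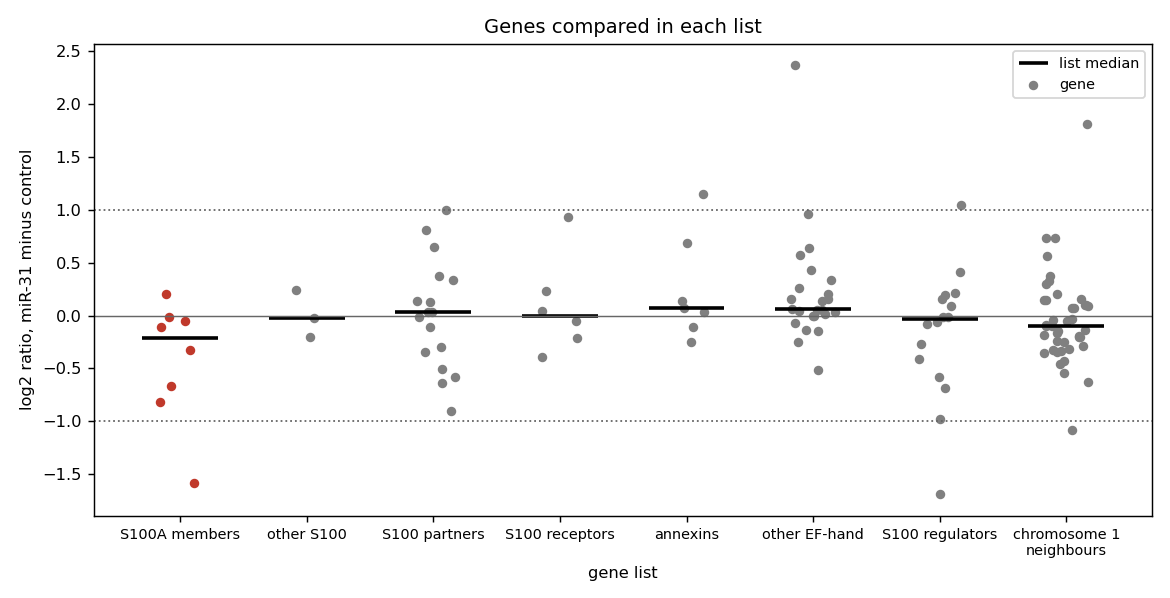
Log2 ratio (miR-31 minus control) of every gene compared in the S100A list and 7 related lists (cell type marker lists are not drawn), with a bar at the list median and dotted lines at 2-fold; points are spread sideways for legibility. The median of the S100A members is -0.22, and those of the other lists drawn lie between -0.10 and 0.08.

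The cell type marker lists held bright genes of more than 1 cell type on both arrays. Of 11 astroglial and glioma markers 9 passed the level minimum, 5 with ratios above 0 and 4 below. NES, an intermediate filament of neural precursors, had 5877 on the miR-31 array and 11039 on the control array (-0.91, with its other probe set at 0.03). GFAP, the astrocyte filament protein, had 3624 on the miR-31 array and 2007 on the control array (0.85, with its other probe set at 1.03). ALDH1L1 had 0.75 and SOX9 -0.56, while SLC1A3 had -0.22. VIM had 0.19, with its other probe set at 0.68, and CD44 had -0.24, with 10 probe sets between -0.69 and 0.28. SOX2 had 0.39, with 4 probe sets between -0.48 and 0.60, and EGFR had 0.05, with 6 between -0.74 and 0.23. AQP4 and S100B did not pass the minimum. The summed intensity of these markers was 87789 on the miR-31 array and 88164 on the control array. Of 9 named immune markers 3 passed, with summed intensities of 512 on the miR-31 array and 381 on the control array, and none above 179 on either. Of 7 epithelial markers 2 passed, KRT8 and KRT18, and their list summed to 3197 on the miR-31 array and 6193 on the control array, mostly from KRT18, with 2938 on the miR-31 array and 5950 on the control array. Of 6 fibroblast markers 4 passed, with sums over the list of 36406 on the miR-31 array and 25268 on the control array and medians of 3122 on the miR-31 array and 3611 on the control array. COL1A2 had 0.77, with 3 probe sets between 0.52 and 1.02, and PDGFRA had 0.69, with its other probe set at -0.02. COL1A1 had -0.62, with 3 probe sets between -0.74 and 0.11, and THY1 had -0.11, with 3 between -0.11 and 0.13. Of 5 neuron markers 2 passed, TUBB3 and SNAP25. TUBB3 had 13681.9 on the miR-31 array and 14211.5 on the control array (-0.05, with its other probe set at -0.28), brighter than GFAP. SNAP25 had -0.60, with its other probe set at 0.18. Of 4 endothelial markers 2 passed, KDR (-0.90) and PECAM1 (0.03), and of 4 named oligodendrocyte markers 0 passed. The part of these marker differences in the S100A values was not tested.

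**Figure D5:**
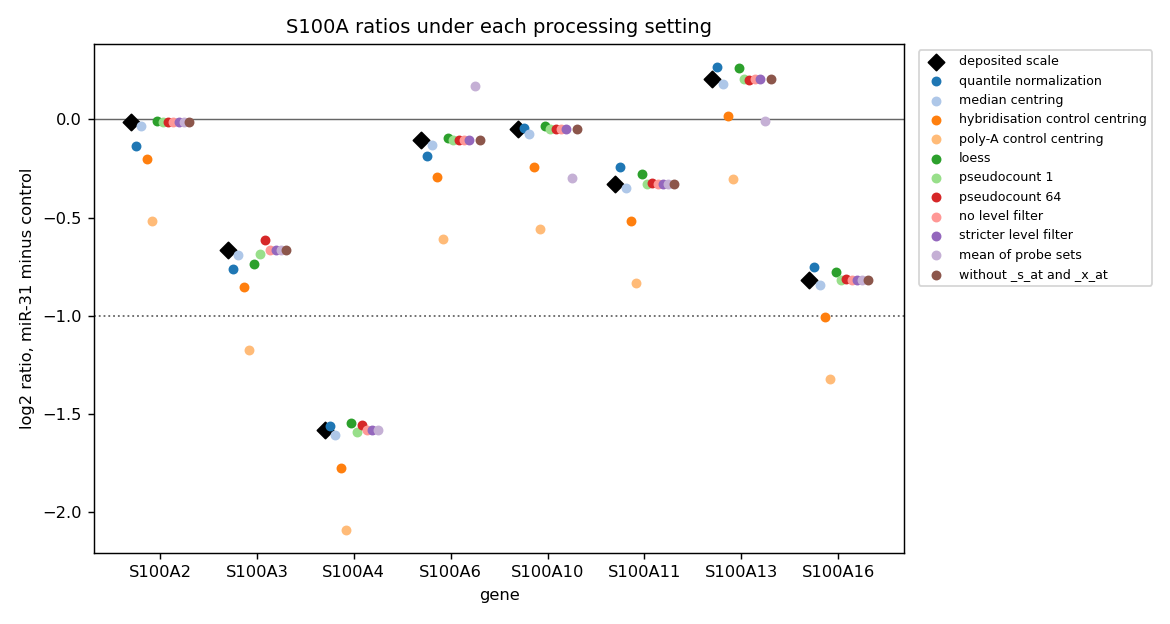
Log2 ratio (miR-31 minus control) of each S100A member on the deposited scale (diamond) and under 11 other processing settings (circles), with a dotted line at 2-fold lower. S100A4 stays between -2.09 and -1.55 in the 10 settings that keep its probe set, while S100A6 and S100A13 have values on both sides of 0.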

How the data were processed

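For 54675 probe sets and 2 arrays, the values the authors deposited are linear intensities, and the sources used here do not name the software behind them. Per the labels' protocols, trizol total RNA was labelled by 3' in vitro transcription. The mean intensity without the lowest and highest 2% of probe sets was 499.9 on both arrays, and the medians were 67.6 on the miR-31 array and 63.2 on the control array. No detection calls were used, so low values cannot be separated from background, and the number of arrays limits the precision.

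Ratios are differences of log2(intensity + 16), miR-31 minus control, which understates changes of dim genes. All counts past 2-fold or 1.5-fold use these ratios, so a gene close to a threshold can fall short of it through the added 16. Probe sets with 1 gene symbol in the platform annotation (41097, against 1801 with several and 11777 unnamed here) and a mean level of at least 62.7 were kept, 62 control probe sets were left out, and the brightest probe set stood for its gene. By Entrez identifier 41037 of 41091 matched RefSeq. The named genes are all members and, per gene list other than cell type markers, the 4 with the largest absolute ratio, with partners named in any case and genes beside the cluster. Genes with another probe set past 2-fold, and the AP-1 subunits JUN and JUNB, were named as well. Cell type markers were named after their values were seen. The members and lists were chosen with earlier results of these data known. No S100 protein sequences were used. The calculation was tested on simulated data. Alternatives were quantile normalization, 3 centrings, loess (span 0.3), pseudocounts of 1 and 64, 2 level filters, the mean of probe sets, leaving out _s_at and _x_at probe sets, and a 1.5-fold threshold. The scripts ran under Python 3.11.15 with pandas 2.3.3, numpy 2.4.6 for arithmetic, statsmodels 0.14.6 for loess, scipy 1.17.1 for the robust SD, and matplotlib 3.10.9 for figures.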

Additional observations from a re-analysis of the deposited data

How the results depend on the processing

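No paired analysis was possible because there is a single array per group, and for the same reason neither array could be left out. The ratios of S100A4, S100A16, S100A3, S100A11, S100A10 and S100A2 were below 0 under each of the alternatives that gave a value. S100A4 could not be compared without _s_at and _x_at probe sets, since its single probe set is of that kind. The number of members at least 2-fold lower, 1 of 8 on the deposited scale, was then 0 of 7, beside 151 of 9154 genes compared. That number was 2 of 8 relative to the hybridisation controls, beside 367 of 11787 genes. Relative to the poly-A controls it was 3 of 8, beside 1121 of 11787 genes. With either centring every ratio shifts by the controls' own median. At 1.5-fold, 3 of 8 members were lower, beside 793 of 11787 genes. The number at least 2-fold higher was 0 throughout. The median over the members was -0.72 when centred on the poly-A controls and lay between -0.41 and -0.11 under the other alternatives. The medians of the partner and receptor lists, close to 0, had either sign over the alternatives, from -0.47 to 0.13 and from -0.51 to 0.13. With the mean of probe sets S100A6 had 0.17 and S100A13 -0.01. Of the 11787 genes compared, 186 were at least 2-fold lower. This became 367 and 1121 with the hybridisation and poly-A centrings, and 122 with a pseudocount of 64. It was 1002 of 19775 genes without a level filter, 100 of 7713 with the stricter filter and 793 of 11787 at 1.5-fold. The 441 at least 2-fold higher became 266, 136, 275, 1184, 151 and 1376 in the same order, out of the same totals. Single probe sets for S100A2, S100A3, S100A4, S100A11 and S100A16, and the absence of replicates, limit all values.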
